A study of Canis lupus familiaris with 11 samples.

Results

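HNRNPUL1 (ENSCAFG00000005026) is listed with 16 exon bins among 217945 bins of 24390 genes in a table of normalised mRNA-Seq reads from canine osteosarcoma. An exon bin is a stretch of exon left over when all annotated transcripts of a gene are cut into pieces that do not overlap, and the 16 bins are all rows that carry the identifier of the gene. The gene was chosen by these same values, because single exons and exon pairs in its middle had a low coefficient of variation (*CV*, the standard deviation over the mean across libraries). The selection used the spread of bins 5 to 10, so the spread of these bins and of the whole gene is described below without a test. In CanFam3.1 the gene lies on chromosome 1, from 112660624 to 112697338, on the minus strand. Bins are numbered along the chromosome, hence bin 1 is the 3′ end and bin 16 the 5′ end of the transcript. RefSeq, on another dog assembly, lists 5 transcripts of the gene and 3 genes that overlap it: the long non-coding RNA LOC119867534 at its end of lower coordinates, the pseudogene LOC119869855 inside it and the long non-coding RNA LOC119867529 at its end of higher coordinates. The library kit does not keep strand, so reads of such partners cannot be told apart from those of HNRNPUL1 where they share sequence positions.

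Heterogeneous nuclear ribonucleoproteins (hnRNPs) bind nascent and mature transcripts and take part in splicing, packaging and export of mRNA. HNRNPUL1 is a relative of HNRNPU, the scaffold attachment factor that binds both RNA and DNA, and is known as a nuclear RNA-binding protein that also acts in the response to DNA breaks. Genes of this class are expressed in nearly all cells. Reads from poly(A)-selected RNA cover a transcript unevenly, and a loss of reads toward the 5′ end is a known property of such libraries when RNA is fragmented, so the position of a bin matters for its level.

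The libraries analysed here were made from 8 tissues of osteosarcoma and from 3 cell lines, separate samples by their labels. The tissues came from dogs aged between 4 years 6 months and 12 years 6 months. Tissue 1033 is described in its label as a lung metastasis. As treatment, the study lists carboplatin for 0460 and 1033 and standard-of-care chemotherapy for DOS-71 and DOS-126. It lists amputation for 1091, palliative treatment for DOS-127 and none for 0320 and DOS-119. For the cell lines it lists standard-of-care chemotherapy for OSCA-30 and OSCA-32 and amputation for OSCA-40. For RNA isolation, the RNeasy Fibrous Tissue Mini Kit had served for tissues 0320, 0460, 1033 and 1091, and TRIzol for tissues DOS-71, DOS-119, DOS-126 and DOS-127. OSCA-30, OSCA-32 and OSCA-40 are cultures of tumour cells from dogs aged 5 years 8 months to 8 years 7 months, and their RNA had been isolated with the RNeasy Mini Kit, so that kit and kind of sample cannot be told apart between cell lines and tissues. The study describes its tissues and cultures as derived from newly diagnosed dogs before cytotoxic chemotherapy. For sequencing it accepted only RNA with an integrity number (RIN) of 8 or more. No normal bone was analysed here. The identity of tissues and cultures could not be checked against marker genes, since the identifiers of the table are not paired with symbols for those genes.

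Between 3123757 and 24902774 reads were counted per library. HNRNPUL1 received 1369 reads in DOS-71, the lowest number, and 12125 in DOS-119, the highest. DOS-71 and OSCA-32 were the shallow libraries, with 3123757 and 3471461 reads in all. The lowest single value of the gene, bin 16 in DOS-71, rested on 37 reads. No bin of the gene was at 0 in any library.

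The value of the whole gene, the sum of its 16 bins, was similar in tissues and cell lines. In tissues it was 3879 normalised reads in 0320, 4215 in 0460, 3418 in 1033, 4110 in 1091, 4516 in DOS-119, 4297 in DOS-126, 3614 in DOS-127 and 4105 in DOS-71. In cell lines it was 2884 in OSCA-30, 4134 in OSCA-32 and 3954 in OSCA-40. The ranges overlapped, and OSCA-30 alone lay below all tissues. The mean was 4019 ± 363 (SD, n = 8) in tissues and 3657 ± 676 (SD, n = 3) in cell lines. The *CV* was 0.117 ± 0.0383 (jackknife SE) over the 11 libraries, 0.0904 over the tissues and 0.0803 over the 10 libraries without OSCA-30. Counting error alone would give a *CV* of 0.0165. In bulk samples, fewer cells of a type and less RNA per cell cannot be told apart. The level of the gene relative to others depends on the scaling of the libraries: over the 13858 genes whose mean reached 10, the median log2 difference of cell line minus tissue was -0.37 as deposited and -0.10 after median-of-ratios scaling. The log2 difference of HNRNPUL1 was -0.15 as deposited and 0.12 after that scaling, so its direction depends on the scaling, while it lay above the median of all genes in both cases.

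Single bins had means between 158 and 504 normalised reads, which also reflect the unknown lengths of the bins and are therefore not compared with each other. What can be compared is the spread of each bin across libraries, which followed the position in the transcript. The lowest *CV* belonged to the middle. Bin 8 had a *CV* of 0.0898 ± 0.0182 (jackknife SE), bin 7 one of 0.0910 ± 0.0338 and bin 6 one of 0.101 ± 0.0378. Toward the 3′ end the *CV* increased step by step, from 0.155 in bin 5 to 0.195 in bin 4, 0.214 in bin 3, 0.235 in bin 2 and 0.326 ± 0.0878 in bin 1. Toward the 5′ end it was 0.124 in bin 9, 0.155 in bin 10, 0.196 in bin 11, 0.175 in bin 12 and 0.303 ± 0.0618 in bin 13, the highest of that side. The last bins of the 5′ end had values of 0.245 in bin 14, 0.261 in bin 15 and 0.212 in bin 16. Of the 16 bins, 9 had a *CV* of at most 0.2, and the median was 0.195. Counting error alone accounts for *CVs* between 0.0458 and 0.0854 in these bins. In bin 8 the counting part, 0.0767, was close to the whole *CV*, whereas in bin 1 it was 0.0458 of 0.326.

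**Figure D1:**
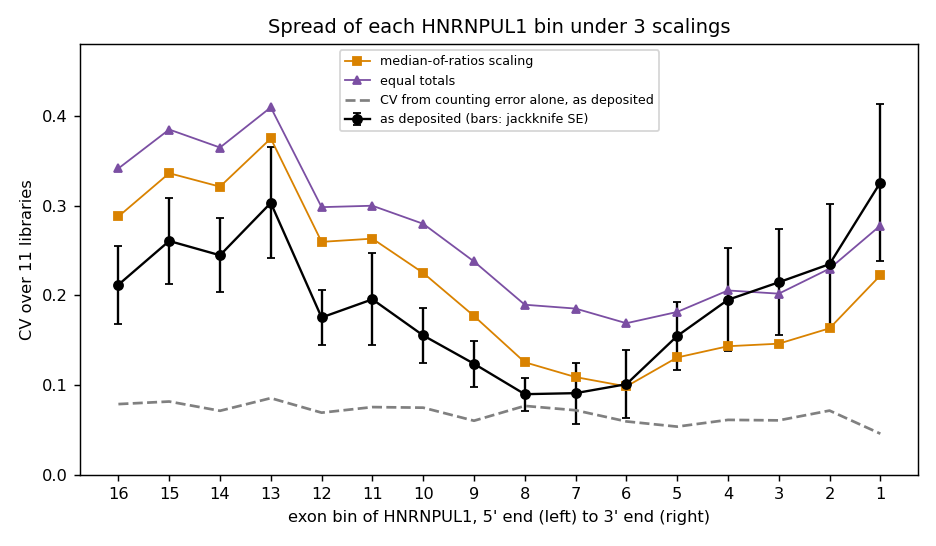
*CV* of each of the 16 HNRNPUL1 bins over 11 libraries (vertical axis) by position from the 5′ end, bin 16, to the 3′ end, bin 1 (horizontal axis). Black points are the deposited values with jackknife SE and show the lowest *CV*, 0.0898, in bin 8 and the highest, 0.326, in bin 1; under the other scalings the lowest *CV* is in bin 6 and the highest in bin 13, and the dashed line gives the *CV* from counting error.

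Libraries lay closest together in the middle and departed from the mean of the bin toward the ends. In bin 8, the values in tissues were 159 in 0320, 199 in 0460, 172 in 1033, 186 in 1091, 202 in DOS-119, 182 in DOS-126, 162 in DOS-127 and 177 in DOS-71, and those in cell lines were 151 in OSCA-30, 185 in OSCA-32 and 181 in OSCA-40. The cell lines lay mostly within the range of the tissues, with OSCA-30 just below it. In bin 1, which forms the 3′ end, the tissues had 502 in 0320, 653 in 0460, 444 in 1033, 576 in 1091, 524 in DOS-119, 857 in DOS-126, 430 in DOS-127 and 576 in DOS-71, while the cell lines had 243 in OSCA-30, 393 in OSCA-32 and 353 in OSCA-40. All 3 cell lines were thus below all 8 tissues in bin 1, and DOS-126 stood above the rest. In bin 13, near the 5′ end, the order was different. The tissues had 132 in 0320, 122 in 0460, 120.5 in 1033, 138 in 1091, 204 in DOS-119, 127 in DOS-126, 144 in DOS-127 and 231 in DOS-71, and the cell lines 150 in OSCA-30, 271 in OSCA-32 and 181 in OSCA-40. The 4 tissues of the RNeasy Fibrous kit and DOS-126 had the lowest values there, DOS-71 and OSCA-32 the highest, and the groups overlapped.

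**Figure D2:**
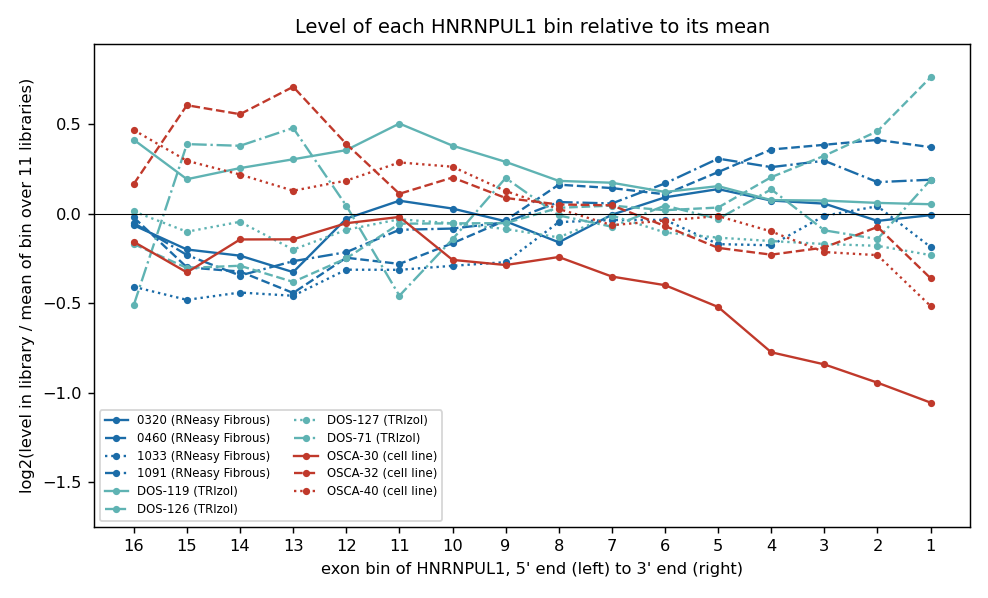
Level of each HNRNPUL1 bin in each of 11 libraries as log2 of the ratio to the mean of the bin (vertical axis), from the 5′ end to the 3′ end (horizontal axis); each line is 1 library, coloured by kit and kind of sample. The lines come closest to each other at bins 6 to 9 and fan out to both sides, with OSCA-30 lowest at the 3′ end (243 normalised reads in bin 1) and DOS-126 highest (857).

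Summed stretches showed the same pattern. Among the 13 windows of 4 neighbouring bins, the window of bins 6 to 9 had the lowest *CV*, 0.0885, and that of bins 1 to 4 the highest, 0.247. The best pair was bins 7 and 8, with a *CV* of 0.0867, and the best trio bins 6 to 8, with 0.0881, so adding neighbours to bin 8 barely lowered the spread. The transcript was further divided into a 3′ stretch (bins 1 to 6), a core (bins 7 to 12) and a 5′ stretch (bins 13 to 16). The *CV* over the 11 libraries was 0.199 ± 0.0533 (jackknife SE) for the 3′ stretch, 0.112 ± 0.0303 for the core and 0.228 ± 0.0399 for the 5′ stretch. Which stretch was steadiest depended on the scaling: median-of-ratios scaling gave 0.125 for the 3′ stretch, 0.181 for the core and 0.309 for the 5′ stretch, and equal totals gave 0.192, 0.236 and 0.355, so that the core no longer had the lowest spread. The window of 4 bins with the lowest *CV* was bins 5 to 8 under both of these scalings, with 0.106 and 0.174, and the lowest single bin was bin 6, with 0.0984 and 0.169. The 5′ stretch had the highest *CV* of the 3 under each scaling tried.

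Levels of neighbouring bins moved together across libraries, whereas the ends did not. Pearson's r between levels of neighbouring bins had a median of 0.883 over the 11 libraries, as a description of values that share library and depth. Between a bin of 1 to 4 and a bin of 13 to 16 it lay between -0.33 and -0.00060. The weakest link between neighbours was that of bins 15 and 16, with an r of 0.413.

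The relative use of a bin was taken as its share, the bin in percent of the gene sum of the same library, which does not depend on the scaling of libraries. Shares of 1 gene add up to 100%, so a lower share at an end goes with higher shares elsewhere. The share of bin 1 was 12.9% in 0320, 15.5% in 0460, 12.98% in 1033, 14.01% in 1091, 11.6% in DOS-119, 19.9% in DOS-126, 11.9% in DOS-127 and 14.02% in DOS-71. It was 8.41% in OSCA-30, 9.51% in OSCA-32 and 8.93% in OSCA-40, so that the groups did not overlap. Bin 3 behaved alike, with 7.62% ± 0.887 (SD, n = 8) in tissues and 5.85% ± 0.363 (SD, n = 3) in cell lines and no overlap. Bin 7 took 5.18% ± 0.354 in tissues and 5.14% ± 0.311 in cell lines, the closest agreement of means along the transcript. Bin 12 went the other way, with 4.44 to 6.42% in tissues and 6.52 to 7.58% in cell lines, again with no overlap. Bin 14, at the 5′ end, took 5.29% ± 1.06 in tissues and 7.33% ± 0.715 in cell lines, with overlap through DOS-71. Bins 1 to 7 had a lower mean share in cell lines and the other 9 bins a higher one. How many bins of all genes lacked overlap in share is not given here.

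**Figure D3:**
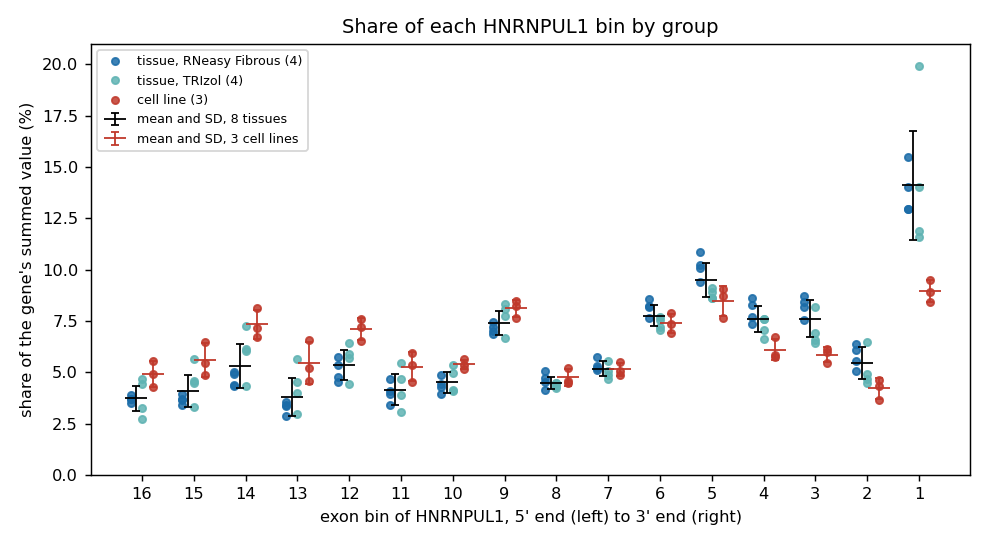
Share of each HNRNPUL1 bin in the summed value of the gene, in percent (vertical axis), from the 5′ end to the 3′ end (horizontal axis), with a point per library and the mean and SD of 8 tissues and of 3 cell lines. The cell lines lie below all tissues in bin 1 (8.41 to 9.51% against 11.6 to 19.9%) and the means cross at bins 7 and 8.

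These shares were tested on the log2 scale with a pseudocount of 1 in a limma fit over 98962 bins of all genes, with Benjamini-Hochberg adjustment. Of the 8 end bins not used in the selection (1 to 4 and 13 to 16), 3 passed an adjusted p of 0.05, all lower in cell lines, while 5.19% of all bins tested were called lower and 5.85% higher. The gene sum that divides each bin holds bins 5 to 10, so the tests of shares are not free of the selection. Bin 1 was lower by a log2 difference of -0.64 ± 0.14 (SE, limma adjusted p = 0.0168), bin 3 by -0.37 ± 0.11 (limma adjusted p = 0.0451) and bin 4 by -0.31 ± 0.092 (limma adjusted p = 0.0461). Bin 2 had a log2 difference of -0.36 ± 0.13 (limma adjusted p = 0.0828). Bins 11 and 12 lie outside bins 5 to 10 as well, but inside the core of bins 7 to 12 that was set for the stretches above. Their p-values were not planned and are given after the exon numbers had been read anew. Bin 12 passed in the other direction and was higher in cell lines by a log2 difference of 0.41 ± 0.12 (SE, limma adjusted p = 0.0446), a call that was lost without any 1 of 8 libraries. Bin 11 had a log2 difference of 0.36 ± 0.16 (limma adjusted p = 0.138). The 5′ bins had log2 differences of 0.54 ± 0.19 in bin 13, 0.49 ± 0.16 in bin 14, 0.47 ± 0.15 in bin 15 and 0.41 ± 0.15 in bin 16, with limma adjusted p-values of 0.0745, 0.0597, 0.0643 and 0.0854. All 8 end bins had an unadjusted p under 0.05 in this fit, as did 32718 of all bins tested. The calls were close to the threshold: that of bin 1 was lost without OSCA-30 (limma adjusted p = 0.0604), and those of bins 3 and 4 were lost without any 1 of 8 libraries. The number of called bins outside 7 to 12 was 1 without 0320, 0460, 1033, 1091, DOS-126, OSCA-32 or OSCA-40, 0 without OSCA-30 and 7 without DOS-71, when bins 13, 14 and 15 were among them. With the lane label as a further term, a fit added after the data had been seen, it was 5. No bin of the gene was called by edgeR on the recovered reads, which takes its error from levels of bins rather than from shares and called 44 bins in all. Its log2 difference of bin 1 was -0.65.

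Levels of the end bins did not pass the test, in contrast to shares. Over the 101533 bins tested for level, 9.25% were called lower and 4.55% higher in cell lines, and 0 of the 8 end bins were among them. The level of bin 1 had a log2 difference of -0.79 ± 0.32 (SE, limma adjusted p = 0.112) and that of bin 13 one of 0.39 ± 0.31 (limma adjusted p = 0.416). At an unadjusted p under 0.05, limma found 1 of the 8 bins and 31815 of the 101533 bins tested. EdgeR called 0 of the 8 end bins and 12781 bins of all genes. Bins 1 and 3 were still without overlap between the groups in level. How common this is over all bins is not given here, so it is no particular trait of the gene.

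The ratio of a stretch to the core summarises these shifts in a single value per library. The ratio of the 3′ stretch to the core was 1.61 in 0320, 1.98 in 0460, 1.65 in 1033, 1.87 in 1091, 1.31 in DOS-119, 2.05 in DOS-126, 1.43 in DOS-127 and 1.61 in DOS-71. In cell lines it was 1.05 in OSCA-30, 1.19 in OSCA-32 and 1.21 in OSCA-40, below all tissues. On the log2 scale the mean was 0.74 ± 0.22 (SD, n = 8) in tissues and 0.20 ± 0.11 (SD, n = 3) in cell lines, a difference of -0.54 with no overlap. Ratios to the core hold bins of the selection and are given as a description, without a test. The log2 ratio of the 5′ stretch to the core was -0.89 ± 0.18 in tissues and -0.62 ± 0.18 in cell lines, a difference of 0.27, and the groups overlapped. Without DOS-71 this difference was 0.33. With bins 5 to 10 as the core, bins 1 to 4 as the 3′ and bins 11 to 16 as the 5′ stretch, a division added after the data had been seen, the differences were -0.48 and 0.43. Lane labels in the library names differ too: among the 6 libraries labelled L006, which are the 4 tissues of the RNeasy Fibrous kit with OSCA-30 and OSCA-32, the difference was -0.67 for the 3′ stretch and 0.40 for the 5′ stretch. The label L007 holds 1 cell line.

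The ends can be compared without any bin of the selection or the core. The ratio of bins 1 to 4 to bins 13 to 16, added after the data had been seen, was 2.05 in 0320, 2.74 in 0460, 2.21 in 1033, 2.40 in 1091, 1.496 in DOS-119, 3.04 in DOS-126, 1.62 in DOS-127 and 1.53 in DOS-71. It was 1.05 in OSCA-30, 1.02 in OSCA-32 and 1.17 in OSCA-40, so that all 3 cell lines were below all tissues. On the log2 scale the mean was 1.05 ± 0.39 (SD, n = 8) in tissues and 0.11 ± 0.10 (SD, n = 3) in cell lines, a difference of -0.94 (two-sided exact permutation test, p = 0.0121, and 0.0485 after Benjamini-Hochberg adjustment over 4 comparisons of the ends). With all 3 cell lines below all tissues, 0.0121 is the smallest p that this two-sided test can give for 8 against 3 libraries. The ratio holds bins 1 and 3, in whose level the groups did not overlap, so this p is no independent support. The adjustment covers only these 4 comparisons and no others made on the same libraries. Without DOS-71 and OSCA-32 the difference was -0.96 (exact permutation test, p = 0.0556), and among the libraries labelled L006 it was -1.17 (exact permutation test, p = 0.133). Both designs are too small for this test to reach 0.05.

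Within the tissues, the isolation kits differed less. The log2 ratio of the 3′ stretch to the core was 0.82 ± 0.14 (SD, n = 4) with RNeasy Fibrous and 0.66 ± 0.28 (SD, n = 4) with TRIzol, a difference of -0.17 with overlap. For the 5′ stretch it was -0.997 ± 0.026 with RNeasy Fibrous and -0.79 ± 0.21 with TRIzol, a difference of 0.21. The log2 ratio of bins 1 to 4 to bins 13 to 16 was 1.22 ± 0.18 with RNeasy Fibrous and 0.87 ± 0.49 with TRIzol, a difference of -0.35 (two-sided exact permutation test, p = 0.229, adjusted 0.457). The 4 tissues of the RNeasy Fibrous kit were close to each other in the 5′ ratio and those of TRIzol were not. Since the kits coincide with the lane labels L006 and L007 among tissues, the comparison covers both. Shares of single bins gave 0 calls for the kits in limma, over the bins of HNRNPUL1 and over all 96100 bins tested (0% of bins). Unadjusted p-values under 0.05 were found for 0 of the 8 end bins and for 5529 of all bins, and edgeR called 1 bin of all genes.

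To set the gradient of HNRNPUL1 beside that of other transcripts, a slope was computed in every library: the least-squares slope of the log2 level, centred per bin over libraries, on position from the 5′ end (0) to the 3′ end (1). Position was the order of the bins in even steps, not a distance along the transcript. A positive slope means more reads toward the 3′ end than in the average library. The slope of the library was the median slope of 45 other genes of known strand, all from the study's own list of stable sequences, so these genes were chosen on the same libraries. The slope of HNRNPUL1 was 0.86 in DOS-126, 0.81 in 0460, 0.58 in 1091, 0.46 in 1033, 0.24 in 0320, -0.054 in DOS-71, -0.13 in DOS-127 and -0.33 in DOS-119. In the cell lines it was -0.71 in OSCA-40, -0.85 in OSCA-32 and -0.88 in OSCA-30. The median slope of the other genes was 0.94 in DOS-126, 0.69 in 0460, 0.62 in 1091, 0.22 in 1033, 0.24 in 0320, -0.096 in DOS-71, -0.16 in DOS-127 and -0.27 in DOS-119. In the cell lines it was -0.85 in OSCA-40, -0.61 in OSCA-32 and -0.80 in OSCA-30. HNRNPUL1 thus followed the other genes library by library, and the gap between both slopes was at most 0.239, in 1033.

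As a description over all 16 bins, Pearson's r between both slopes was 0.971 over the 8 tissues and 0.979 over the 11 libraries. Cell lines lay below all tissues in both measures, by a difference of means of -1.12 for HNRNPUL1 and -1.03 for the other genes. The slope was then computed from bins 1 to 4 and 13 to 16 alone, which the selection did not use, in a step added after the data had been seen. Over the 8 tissues, r between this slope and that of the other genes was 0.977 (exact permutation test, p = 0.000149) and Spearman's rho 0.976 (exact permutation test, p = 0.000397). Without DOS-119 and DOS-126, the tissues farthest from the median slope of the other genes, r was 0.955 over 6 tissues. With the 3 cell lines added, r was 0.982 (permutation test, p = 2e-05, the smallest that these resamples can give) and rho 0.964 (permutation test, p = 4e-05), and without the 2 farthest libraries, 0460 and DOS-126, r was 0.970. After subtraction of the slope of the other genes, the end bins kept a slope of 0.026 ± 0.094 (SD, n = 8) in tissues and -0.043 ± 0.18 (SD, n = 3) in cell lines, a difference of -0.069 within the spread between libraries (two-sided exact permutation test, p = 0.4, adjusted 0.457). Without OSCA-32 this difference was 0.018. Between TRIzol and RNeasy Fibrous tissues it was -0.059 (two-sided exact permutation test, p = 0.457, adjusted 0.457).

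**Figure D4:**
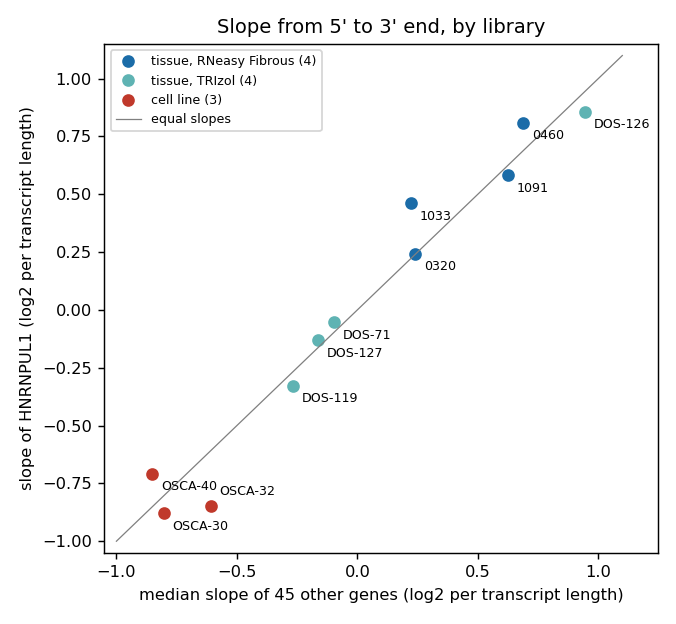
Slope of HNRNPUL1 from the 5′ to the 3′ end in each of 11 libraries (vertical axis). The horizontal axis gives the median slope of 45 other genes in the same library. Both are in log2 units over the full range of bins, spaced evenly by order, which the axis labels call transcript length. A line of equal slopes is drawn. Points lie along the line, from the 3 cell lines at the lower left (slopes of -0.71 to -0.88 for HNRNPUL1) to DOS-126 at the upper right (0.86).

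Bins were not equally tied to this gradient. As a description over the 11 libraries, which share depth and kit within groups, the share of bin 1 had an r of 0.947 with the median slope of the other genes, bin 3 one of 0.935, bin 5 one of 0.539, bin 7 one of -0.018 and bin 8 one of -0.32. At the 5′ side, r was -0.89 in bin 9, -0.96 in bin 12 and -0.90 in bin 14, and weaker, -0.67, in bin 16. The bins whose shares were least tied to the slope, 6, 7 and 8, were those with the lowest *CV* of the deposited values. That *CV* is one of levels, and levels were tied to the slope differently from shares. For levels, r was 0.620 in bin 6, 0.519 in bin 7 and 0.310 in bin 8, and it was closest to none in bin 9, with -0.175. Bins 6, 7 and 8 also belong to the bins used in the selection, so the match is a description. Apart from that subtraction, the slopes of libraries were not removed from any value above. The slope of the other genes itself lay lower in all cell lines than in all tissues. The subtraction therefore cannot tell slope and kind of sample apart, and the part of the slopes in the difference was not tested.

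A second pattern did not follow the gradient. Bins 13 to 15, close to the 5′ end, were high in DOS-71 and OSCA-32 relative to bins 11 and 16. Bin 12, the direct neighbour of bin 13, was left out. Its share, 5.70% in DOS-71 and 7.19% in OSCA-32, lay within the range of its group. Bins 11 and 16 had the lowest shares of the group, 3.07 and 2.70% in DOS-71 and 4.52 and 4.29% in OSCA-32. Bins 13 to 15 had the highest of the group, so the ratio holds both departures. The ratio of reads in bins 13 to 15 to reads in bins 11 and 16 was 3.20 in DOS-71 (253 to 79 reads) and 2.40 in OSCA-32 (365 to 152 reads), and between 1.44 and 1.61 in the 9 other libraries. As a share of the reads of these 5 bins, bins 13 to 15 took 76.2% in DOS-71 (95% exact binomial interval 71.3 to 80.7%) and 70.6% in OSCA-32 (66.5 to 74.5%), against 59.0 to 61.7% in the others, whose intervals reached from 55.2 to 64.8%. These intervals cover counting error only. DOS-71 is a tissue and OSCA-32 a cell line, of different kits and lane labels, and both are the shallow libraries. The part of depth in this pattern was not tested. The choice of these bins was made after their values had been seen.

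**Figure D5:**
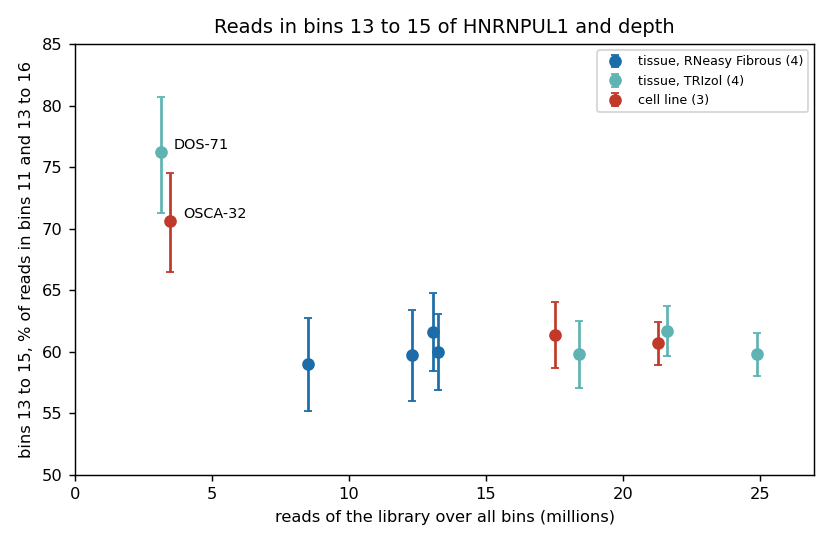
Reads in bins 13 to 15 of HNRNPUL1 as a percentage of reads in bins 11 and 13 to 16 (vertical axis, starting at 50) against the reads of the library (horizontal axis), with 95% exact binomial intervals. The 9 deeper libraries lie between 59.0 and 61.7%, and DOS-71 and OSCA-32 lie at 76.2 and 70.6%.

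Other hnRNP genes were read from the same table where their identifier could be paired with a symbol. All of them come from the study's list of stable sequences, which was drawn from these libraries, so their low spread is no independent evidence. Of HNRNPL, HNRNPR, HNRNPDL, HNRNPU and HNRNPM, 0 of 5 passed the test of the gene value between cell lines and tissues by limma or by edgeR, and 0 had an unadjusted p under 0.05 by limma. Over the 13858 genes tested, limma called 14.4% lower and 2.6% higher, and 4406 had an unadjusted p under 0.05. EdgeR called 1768 genes. The median log2 difference of these 5 hnRNP genes was -0.090, against -0.37 over all genes. HNRNPU, the nearest named relative, had 5744 ± 1019 normalised reads (SD, n = 8) in tissues and 5297 ± 887 (SD, n = 3) in cell lines. HNRNPL, a splicing regulator that binds CA-rich RNA, had 4784 ± 944 in tissues and 4154 ± 510 in cell lines. The *CV* of these 5 gene values lay between 0.171, in HNRNPU, and 0.2999, in HNRNPDL, compared with 0.117 in HNRNPUL1.

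Of 9 further genes of mRNA processing and export, SRRT, a component of cap-binding complexes, was the only one whose gene value passed the test. It fell by 0.93 on the log2 scale in cell lines (SE 0.29, limma adjusted p = 0.0460), from 2420 ± 612 (SD, n = 8) to 1284 ± 418 (SD, n = 3). The call was lost with edgeR on the recovered reads (adjusted p = 0.166) and after median-of-ratios scaling (limma adjusted p = 0.107). The median log2 difference of these 9 genes was -0.41. XPO1, the nuclear exporter, had 1717 ± 221 in tissues and 2154 ± 402 in cell lines. ZRANB2, a splicing factor, had a log2 difference of -0.60 (limma adjusted p = 0.165).

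The genes whose value was most like that of HNRNPUL1 across the 11 libraries were looked for among the 45 genes with a symbol. HNRNPL had the highest Pearson's r of log2 values, 0.668, followed by SRRT with 0.640. Among those next in order were SRP68, a protein of the signal recognition particle, with 0.580 and TIAL1, an RNA-binding regulator of splicing and translation, with 0.567. Over the 8 tissues alone, r was 0.685 for HNRNPL, 0.244 for SRRT, 0.691 for SRP68 and 0.602 for TIAL1. HNRNPL ranked only at position 191 of 13858 genes, and the highest r of any gene was 0.900, in a gene without a symbol. All libraries share the scaling, which enters both values of each pair.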

How the data were processed

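The authors sequenced poly(A) RNA, processed base calls with CASAVA 1.8.2, used TopHat to align the reads to CanFam3.1, discarded reads with several matches and took the number per exon bin from the DEXSeq scripts. The deposited values are a normalised signal: reads divided by 1 factor per library, whose origin is not given in the sources used here. Within a tolerance of 0.1, 100% of values were multiples of what 1 read is worth in the library, which gave the reads behind them. Of the columns, 1 could not be mapped to a sample and was not used.

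Gene values, shares, *CVs*, jackknife SE, slopes and exact permutation tests (two-sided, or 100000 resamples for correlations over 10 or more libraries) came from scipy 1.17.1, pandas 2.3.3 and numpy 2.4.6 (Python 3.11.15), and figures from matplotlib 3.10.9. limma 3.58.1 (trend, R 4.3.3) was fitted on log2(value + 1) or log2 shares over all bins, or genes, with a mean of at least 10, with Benjamini-Hochberg adjustment at 0.05, and edgeR 4.0.16 on recovered reads was an alternative. The scripts were tested on simulated data. The genes to be named were all bins of HNRNPUL1, the hnRNP and mRNA processing lists, and the 5 genes of highest r. THRAP3 has no row of its own and was not analysed here, and 2 further genes of these lists are not reported here.

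The gene, lists and divisions were chosen with earlier results of these data known. The core was set as bins 7 to 12 by reading the exon numbers of the study's list as bin numbers. Compared with the means in that list, its 5 single exons of HNRNPUL1 count from the 5′ end (ratios of means of 0.939 to 0.979, against 0.543 to 1.61 as bin numbers), which makes the selected bins 5 to 10. The listed pair of exons 7 and 8 fits better as bin numbers (ratio 0.963, against 1.22 from the 5′ end). By either reading this pair lies within bins 5 to 10. The first division was kept, the second was added as an alternative, and ratios to either core and slopes over all 16 bins are described without p-values. Tests of HNRNPUL1 use bins 1 to 4 and 13 to 16, or, for single shares, also bins 11 and 12. Tests of shares divide by a gene sum that holds bins 5 to 10. The comparisons of both ends were added after the data had been seen. Where nothing states separate cultures or extractions, p-values measure the spread between these samples.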

Additional observations from a re-analysis of the deposited data

Results flagged for a closer look

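Among 23 measures compared over the 8 tissues, none of them made from bins 5 to 10 alone, 2 held a tissue whose gap to its nearest neighbour, divided by the whole range, exceeded Dixon's 95% critical value. Chance gives this in about 1 of 20 groups, and the measures are not independent of each other. DOS-119, the deepest library, had the highest level of bin 11, 245 normalised reads with the next tissue at 182. DOS-126 had a share of bin 1 of 19.9%, with the next tissue at 15.5%, and it also had the steepest slope of the other genes, 0.94.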

How the results depend on the processing

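With single libraries left out, the correlation of slopes stayed between 0.975 and 0.986, and that of the end bins between 0.978 and 0.988. The log2 difference of bins 1 to 4 over bins 13 to 16 stayed between -1.01 and -0.86, and for the kits between -0.59 and -0.25. The difference in slope of the end bins after subtraction stayed between -0.17 and 0.018, and for the kits between -0.11 and -0.0033. The log2 difference between cell lines and tissues stayed between -0.59 and -0.48 for the 3′ stretch over the core, and between 0.17 and 0.36 for the 5′ stretch, lowest without OSCA-32. Bins called for share numbered 3305 to 22456 over all genes, lowest without OSCA-32 and highest without DOS-71, and 0 to 7 in HNRNPUL1 outside bins 7 to 12, against 10926 and 3 with all libraries. For the kits 0 to 2 bins of all genes were called. Bins called for level numbered 6764 to 16618, against 14005, and genes 1529 to 2315, against 2352. Without both shallow libraries the differences to the core were -0.58 and 0.23, and that in slope 0.013. That of the ends was -0.96, in a design too small to pass the threshold. Among the libraries labelled L006 the 3′ difference to the core was -0.67 and that of the ends -1.17, in a design too small to pass. With bins 5 to 10 as the core, the 5′ difference was 0.43.

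Equal totals gave *CVs* of 0.202 for the gene value, 0.145 in tissues, 0.236 for the core and 0.355 for the 5′ stretch, a median bin *CV* of 0.258 and 4 bins of at most 0.2. Median-of-ratios scaling gave 0.181 for the core, 0.125 for the 3′ and 0.309 for the 5′ stretch. Bins called for share numbered 19940 with a mean of at least 1, which tests more bins, and 44 with edgeR, whose calls in HNRNPUL1 were 0. With the lane label as a further term, 5 bins of HNRNPUL1 were called. Kits gave 6 bins with a pseudocount of 5 and 1 with edgeR. No result reversed past its threshold, and log2 differences of HNRNPDL, HNRNPL, HNRNPM and HNRNPU changed sign with the scaling. The causes were not tested. Depth limits the shallow libraries most, where single bins rest on as few as 37 reads. No paired analysis was possible because the labels give no replicate numbers that groups share.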

Other observations

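A lower spread in the middle of the transcript than at its ends was also looked for in other genes. With the bins of each gene divided into 3 parts of about the same number of bins, HNRNPUL1 had a median bin *CV* of 0.112 in the middle part, 0.245 in the 5′ part and 0.214 in the 3′ part. Of the other hnRNP genes, 3 of 5 had their lowest *CV* in the middle part, namely HNRNPL, HNRNPM and HNRNPU. HNRNPU had 0.328 in the 5′ part, 0.180 in the middle and 0.323 in the 3′ part. HNRNPR, which acts in mRNA processing, had its lowest *CV* in the 3′ part, 0.173, and HNRNPDL in the 5′ part, 0.274. Of the 9 other genes of mRNA processing, 4 had the middle lowest. Over 3088 genes with at least 12 bins, the median bin *CV* of the middle part was lower than that of both outer parts together in 65.9%, and the median ratio was 0.953, against 0.5002 in HNRNPUL1. The counts of listed genes instead need the middle below each outer part, and the share of all genes by that rule was not computed. The listed genes also come from the study's own stable sequences, so their counts are a description. The gene was selected for its middle bins, so its ratio is a description.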
